A study of Mus musculus with 12 samples.

Results

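Kcnk13, Slc41a3, Tcf24 and Relt are 4 genes, of 24421 in the deposited mouse gene table, whose transcripts were higher in uninjured islets of beta-cell Bmal1 knockout mice than in islets of control mice. They were chosen by their log2 fold change between the vehicle libraries, so that difference is given here as a description, with no test. The question asked of them is whether that difference was still present after injury by streptozotocin (STZ), a sugar-like toxin that enters beta cells through the glucose transporter GLUT2. Knockout mice were Bmal1fl/fl RIPCreERT/+, with floxed Bmal1 and a Cre-oestrogen receptor fusion under the rat insulin promoter, and control mice were Bmal1fl/fl without Cre. Islets of each genotype were collected 24 h after citrate buffer (vehicle), 24 h after STZ and 4 weeks after STZ, which gives 6 groups of 2 libraries, A and B. No vehicle group was taken at 4 weeks, so in values of 4 weeks over vehicle, STZ and time cannot be told apart. Every group carries the floxed allele, no group carries the Cre alone, and so an effect of the Cre cannot be told apart from the deletion of Bmal1. Ages are not given in the labels, and neither is the induction of the Cre. The labels also leave it unsaid whether A and B are islets of different animals. The p-values therefore weigh differences against the gap between A and B, which may be purely technical.

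BMAL1, encoded by Arntl, pairs with CLOCK and activates transcription from E-boxes, among them the genes of its own repressors, the PER and CRY proteins and the REV-ERB receptors. Removing BMAL1 therefore lowers direct targets and can raise genes that those repressors hold down. The 4 genes have unlike roles. Kcnk13 encodes THIK-1, a background potassium channel of the K2P (tandem-pore) family, known as the main resting potassium conductance of microglia. Slc41a3 encodes a magnesium transporter related to bacterial MgtE channels, reported in human cells to carry magnesium out of mitochondria. Relt encodes a receptor of the tumour necrosis factor (TNF) superfamily, whose human protein binds the kinases OXSR1 and STK39. Tcf24 encodes a basic helix-loop-helix (bHLH) transcription factor.

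In mm10 coordinates, Kcnk13 lies on chromosome 12 from 99964499 to 100062682 on the plus strand with 3 annotated transcripts. Slc41a3 lies on chromosome 6 from 90604880 to 90646412 on the plus strand with 2 transcripts that start at different exons. Relt lies on chromosome 7 from 100845848 to 100863413 and Tcf24 on chromosome 1 from 9960163 to 9967485, both on the minus strand with 1 transcript each. RefSeq promoter sequences (GRCm38.p6, the build of mm10) were at hand for 3 of the 4 genes. They are shown because a clock-controlled gene may carry an E-box or an element of the REV-ERB and ROR receptors near its start. Each is the 250 bases before the annotated start, 5′ to 3′ on the gene's strand, and capitals mark the E-box CACGTG.
Slc41a3, chr6:90618996-90619245, plus strand: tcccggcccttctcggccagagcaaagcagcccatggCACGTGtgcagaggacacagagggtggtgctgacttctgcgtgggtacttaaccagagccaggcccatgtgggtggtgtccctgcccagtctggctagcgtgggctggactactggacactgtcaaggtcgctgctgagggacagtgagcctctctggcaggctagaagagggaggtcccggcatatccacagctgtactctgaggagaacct
Kcnk13, chr12:99964249-99964498, plus strand: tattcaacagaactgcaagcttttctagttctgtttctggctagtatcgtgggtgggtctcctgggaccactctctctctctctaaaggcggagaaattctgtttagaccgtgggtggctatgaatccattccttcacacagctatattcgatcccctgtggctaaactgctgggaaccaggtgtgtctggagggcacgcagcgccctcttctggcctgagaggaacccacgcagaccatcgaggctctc
Relt, chr7:100863414-100863663, minus strand: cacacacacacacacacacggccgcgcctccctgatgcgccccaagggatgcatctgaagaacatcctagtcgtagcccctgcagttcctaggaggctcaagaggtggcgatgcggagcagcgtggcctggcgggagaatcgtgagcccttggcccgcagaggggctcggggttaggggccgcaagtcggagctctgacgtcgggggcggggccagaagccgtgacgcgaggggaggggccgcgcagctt
The Slc41a3 window holds 1 E-box, whose first base lies 213 bases before the start of the downstream transcript. On either strand, CACGTG is present in 6.02% of 32851 promoter windows of this length. None of the 3 windows holds the ROR core AGGTCA (in 14.0% of windows), the longer ROR element that extends part of that core upstream (2.04%) or the D-box TTATGNAA (3.07%). A match is a description of letters and not evidence of binding.

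Levels are given in CPM, counts brought to a common library size, with sizes scaled by TMM, which assumes that most genes do not differ. Differences are log2 fold changes of knockout over control with their standard error (SE), from a quasi-likelihood fit in edgeR across the 17411 genes tested. Adjusted p is the Benjamini-Hochberg value of that test over all those genes, two-sided, with a threshold of 0.05. All 4 members passed the filter on low counts. Total counts were 101772241 to 127207523 per library. Esr1, whose oestrogen receptor sequence the CreERT fusion carries, averaged 341 ± 25.1, 53.0 ± 2.67 and 124 ± 8.30 CPM in knockout under vehicle, at 24 h and at 4 weeks, against 0.905 ± 0.0892, 1.98 ± 0.434 and 0.842 ± 0.192 CPM in control (SD, n = 2 each). The whole-gene count of Arntl, the targeted gene, was higher in knockout under vehicle (log2 1.14, edgeR adjusted p = 0.000238), did not pass at 24 h (-0.26, edgeR adjusted p = 0.0877) and was lower at 4 weeks (-0.84, edgeR adjusted p = 0.000548). Which exon is floxed is not in the labels, and no exon of Arntl was examined here, so this count does not show the deletion. Arntl averaged 18.9 ± 1.46, 9.16 ± 0.393 and 11.5 ± 0.185 CPM in knockout, against 8.58 ± 0.301, 11 ± 0.315 and 20.5 ± 0.166 CPM in control (SD, n = 2 each). Markers of other tissues moved with the groups. The 12 acinar-cell genes summed to 82200 to 83300 CPM in knockout vehicle against 351000 to 365000 CPM in control vehicle, and the 12 beta-cell genes to 22800 to 25300 CPM in knockout 24 h after STZ against 120000 to 129000 CPM in control. At 4 weeks after STZ the 7 intestine-lining genes summed to 8750 to 8950 CPM in knockout against 237 to 238 CPM in control, and the 6 hepatocyte genes to 5210 to 5750 CPM against 2000 to 2130 CPM. Their part in the 4-week differences below was not tested. The labels call the islets mainly beta cells, but the acinar sum exceeded the beta-cell sum in 5 of 6 groups, knockout vehicle being the exception. In such bulk samples, fewer cells of a type and less RNA per cell cannot be told apart.

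Under vehicle, every knockout library lay above both control libraries for all 4 genes. The rule chose them for this, so nothing is read from it. Kcnk13 had the widest gap, with 5.15 and 4.37 CPM in knockout against 0.326 and 0.501 CPM in control, an 11.5-fold difference (log2 3.52, SE 0.27). In control vehicle it rested on 30 to 44 counts per library. Slc41a3 had 39.8 and 28.4 CPM in knockout against 6.45 and 5.29 CPM in control (log2 2.54, SE 0.27). Tcf24 had 91.5 and 115.6 CPM in knockout against 25.5 and 23.9 CPM in control (log2 2.07, SE 0.18). Relt had 28.7 and 21.6 CPM in knockout against 7.42 and 6.34 CPM in control (log2 1.87, SE 0.26). Among genes past the threshold with a mean of at least 2 CPM and a standard gene name, Relt was the last inside the 10 largest gains, and Dusp4, at 1.86, lay just outside. Of all genes tested, 1.96% were called higher and 7.68% lower under vehicle, and 19.6% had both knockout libraries above both control libraries. Markers of other cells differed in this comparison too. All 12 acinar genes were called lower in knockout. Of the 12 beta-cell genes edgeR called 0, with 3 at an unadjusted p under 0.05 and 2 called by the DESeq2 Wald test. The part of that in the 4 differences was not tested.

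**Figure D1:**
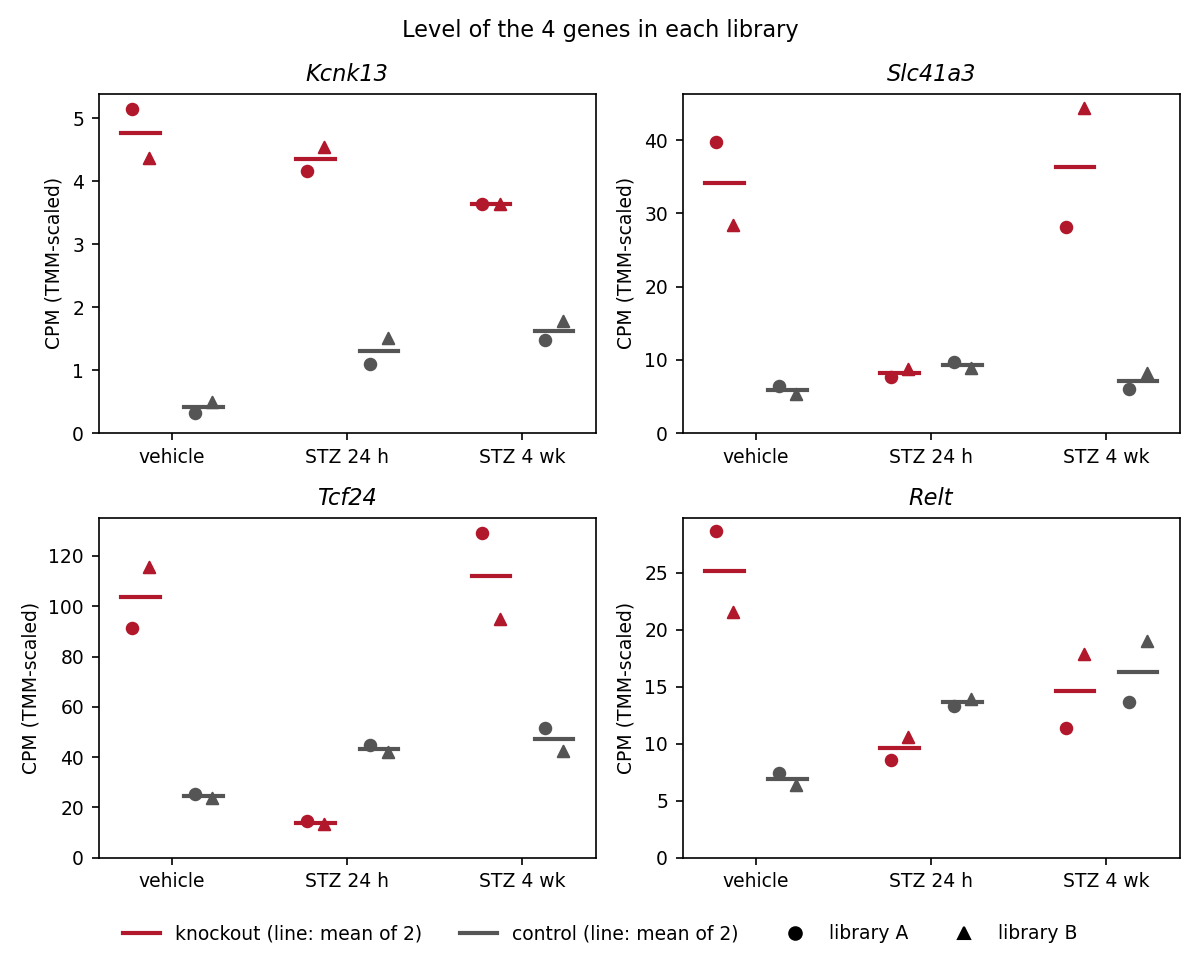
Level of each gene in every library, in TMM-scaled CPM on a linear axis from 0, with knockout left of control in each condition, circles for library A, triangles for library B and a line at the mean of 2. Kcnk13 was higher in knockout in all 3 conditions, Slc41a3 and Tcf24 were high in knockout under vehicle and at 4 weeks and low at 24 h, and Relt was above control in knockout under vehicle (28.7 and 21.6 CPM) and not after STZ.

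After STZ the 4 genes parted under TMM. At 24 h, Kcnk13 was higher in knockout, Tcf24 was lower, and Slc41a3 and Relt did not pass the test. At 4 weeks, Kcnk13, Slc41a3 and Tcf24 were higher in knockout and Relt did not pass. The share of all genes called higher in knockout was 23.7% at 24 h and 19.9% at 4 weeks, and the share called lower was 19.4% and 7.89%. At 24 h, 1 of 4 members higher and 1 lower is therefore near the background. At 4 weeks, 3 of 4 members were higher where 19.9% of genes were.

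The channel gene Kcnk13 kept a genotype difference at both times. At 24 h after STZ it had 4.16 and 4.54 CPM in knockout against 1.11 and 1.51 CPM in control, a log2 difference of 1.73 (SE 0.24, edgeR adjusted p = 0.000513). At 4 weeks it had 3.63 CPM in both knockout libraries against 1.48 and 1.78 CPM in control, a log2 difference of 1.16 (SE 0.24, edgeR adjusted p = 0.0067). Both knockout libraries lay above both control libraries each time, as 42.2% of genes did at 24 h and 30.4% at 4 weeks. Without control library A of the 4-week group, the adjusted p at 4 weeks was 0.0517. In a fit of the 4 libraries of that time alone, it was 0.0734. Under TMM, the knockout levels lay within 3.63 to 5.15 CPM in all 3 conditions. On that scale it was the control level that varied most, being lowest under vehicle. As a description, STZ over vehicle in control was log2 1.66 (SE 0.26) at 24 h and 1.98 (SE 0.26) at 4 weeks, and in knockout -0.13 (SE 0.23) and -0.39 (SE 0.235). The vehicle libraries are all from 24 h. The genotype difference at 4 weeks minus that at 24 h was -0.58 and did not pass (edgeR adjusted p = 0.328).

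Macrophage transcripts stand beside this result because THIK-1 is known from microglia. The 15 macrophage genes summed to 106 to 114 CPM in knockout vehicle against 142 to 150 CPM in control vehicle. At 24 h after STZ they summed to 2080 to 2090 CPM in knockout against 252 to 256 CPM in control, and at 4 weeks to 539 to 634 CPM against 167 to 184 CPM. All 15 were called higher in knockout at 24 h and 14 at 4 weeks. Across the knockout groups, the macrophage sum was highest at 24 h. Under TMM Kcnk13 averaged 4.76 CPM in knockout vehicle and 4.35 CPM at 24 h, with overlapping libraries. Scaled to endocrine genes instead, as described below, its means there were 3.2 and 11.4 CPM. Across the control groups under TMM, the macrophage sum and Kcnk13 were each higher at 24 h than under vehicle, Kcnk13 averaging 1.31 against 0.414 CPM. The part of macrophage transcripts in the Kcnk13 difference after STZ was not tested further.

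Under TMM, the magnesium transporter gene Slc41a3 lost its genotype difference at 24 h and showed it again at 4 weeks. At 24 h after STZ it had 7.71 and 8.70 CPM in knockout against 9.65 and 8.85 CPM in control, a log2 difference of -0.17 (SE 0.26, edgeR adjusted p = 0.625). The knockout libraries were slightly below the control libraries, as for 40.8% of genes, and by less than the error of the fit. At 4 weeks it had 28.1 and 44.4 CPM in knockout against 6.05 and 8.20 CPM in control, a log2 difference of 2.35 (SE 0.27, edgeR adjusted p = 0.000255). Control levels stayed within 5.29 to 9.65 CPM in all 6 control libraries. Within knockout, 4 weeks exceeded 24 h by log2 2.15 (edgeR adjusted p = 0.000386), a direction called for 20.2% of genes. In control the same contrast was -0.38 (edgeR adjusted p = 0.679), and 5.49% of genes were called in either direction. The genotype difference at 4 weeks minus that at 24 h was 2.52 (edgeR adjusted p = 0.00323), where 8.79% of genes were called positive. The loss at 24 h rests on the scaling. Scaled to endocrine genes instead, as described below, Slc41a3 averaged 21.6 CPM in knockout against 7.4 CPM in control at 24 h.

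Tcf24, the bHLH factor gene, turned round between the times under TMM. At 24 h after STZ it had 14.5 and 13.2 CPM in knockout against 44.7 and 41.9 CPM in control, a log2 difference of -1.64 (SE 0.18, edgeR adjusted p = 0.000131). On that scale these were its lowest libraries in the study. At 4 weeks it had 129.3 and 95.0 CPM in knockout against 51.7 and 42.6 CPM in control, a log2 difference of 1.25 (SE 0.18, edgeR adjusted p = 0.000876). The 4-week knockout libraries overlapped the vehicle knockout libraries, at 91.5 and 115.6 CPM. Within knockout, 4 weeks exceeded 24 h by log2 3.02 (edgeR adjusted p = 1.3e-05), against 0.12 in control. The genotype difference at 4 weeks minus that at 24 h was 2.89 (edgeR adjusted p = 0.000321). Averaged over both times, the opposite differences left -0.20, which did not pass (edgeR adjusted p = 0.228). Without knockout library A of the 4-week group that mean was -0.32 and passed (edgeR adjusted p = 0.0479). Of all genes, 48.8% were called on the mean of both times, and Kcnk13 (1.45) and Slc41a3 (1.09) were among them. The lower level of Tcf24 at 24 h rests on the scaling. Scaled to endocrine genes instead, as described below, Tcf24 averaged 36.46 CPM in knockout against 34.45 CPM in control at 24 h.

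The receptor gene Relt showed no called difference at either time after STZ under TMM with all libraries. At 24 h it had 8.59 and 10.6 CPM in knockout against 13.3 and 13.9 CPM in control, a log2 difference of -0.51 (SE 0.26, edgeR adjusted p = 0.146). The knockout libraries lay below the control libraries, as they did for 40.8% of genes. A fit of the 4 libraries of that time alone gave the same value with an adjusted p of 0.00389. At 4 weeks Relt had 11.3 and 17.9 CPM in knockout against 13.7 and 19.0 CPM in control, and the groups overlapped (log2 -0.16, SE 0.26, edgeR adjusted p = 0.711). That value was 0.13 without knockout library A and 0.09 without control library B of the 4-week groups. On the mean of both times Relt differed by -0.33 (edgeR adjusted p = 0.162), and without knockout library B of the 4-week group by -0.52, which passed (edgeR adjusted p = 0.0311). As a description, STZ over vehicle was log2 0.98 (SE 0.26) at 24 h and 1.25 (SE 0.26) at 4 weeks in control, and -1.39 (SE 0.26) and -0.78 (SE 0.26) in knockout. These contrasts share the vehicle libraries that chose the gene, all of them from 24 h. The genotype difference at 4 weeks minus that at 24 h was 0.35 and did not pass (edgeR adjusted p = 0.624).

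Ordered by mean level, the groups ran differently for each gene. For Slc41a3 and Tcf24, knockout at 4 weeks and knockout under vehicle came first, with overlapping libraries, and stood clear of the next group. For Kcnk13 the 3 knockout groups came first, vehicle and 24 h overlapping each other. For Relt, knockout vehicle came first and stood clear, and neighbours overlapped among control 4 weeks, knockout 4 weeks and control 24 h. Compared per base of transcript, as mean depth scaled for library size, Tcf24 was the most abundant of the 4 under vehicle (207 in knockout against 49.4 in control). Slc41a3 followed with 114 against 19.6, then Relt with 66.9 against 18.3, and Kcnk13 was lowest with 11.5 against 0.979.

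The 24 h results of 3 of the 4 genes rest on the scaling. TMM compares each gene with the bulk of all transcripts, and beta-cell transcripts were a smaller share of the knockout libraries at that time. Of the 12 beta-cell markers, 11 were called lower in knockout at 24 h and 10 at 4 weeks, where they summed to 46800 to 79900 CPM against 98700 to 146000 CPM in control. Scaled instead to 20 genes expressed across endocrine cell types (pan-endocrine genes), the median of all genes moved by 1.73 at 24 h and by 0.70 at 4 weeks on the log2 scale. Under TMM, 19 of those 20 genes were called lower in knockout at 24 h and 15 at 4 weeks. With pan-endocrine scaling, edgeR called 14443 of 17411 genes higher in knockout at 24 h and 9014 at 4 weeks, so a higher call there is common. On that scale the 24 h difference was 0.08 for Tcf24 (edgeR adjusted p = 0.732), 1.55 for Slc41a3 (edgeR adjusted p = 0.000246) and 1.22 for Relt (edgeR adjusted p = 0.000941). Each of these 3 turned round in sign and lay below the median of all genes. Kcnk13 was 3.46 at 24 h on that scale, above the median of all genes. Its knockout means there were 3.2, 11.4 and 4.2 CPM under vehicle, at 24 h and at 4 weeks. In control they were 0.36, 1.04 and 1.15 CPM. The narrow range of its knockout levels under TMM thus rests on the scaling as well. At 4 weeks the log2 differences were 1.86 for Kcnk13, 3.03 for Slc41a3, 1.96 for Tcf24 and 0.52 for Relt, of which Relt did not pass (edgeR adjusted p = 0.0811). The genotype difference at 4 weeks minus that at 24 h passed for Slc41a3 at 1.48 and for Tcf24 at 1.88 under this scaling too, where 330 genes were called positive. For Kcnk13 it was -1.60 and passed (edgeR adjusted p = 0.00491), beside a median of -0.94 over all genes and 7970 genes called negative. The part of cell composition in the 24 h values was not tested further.

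**Figure D2:**
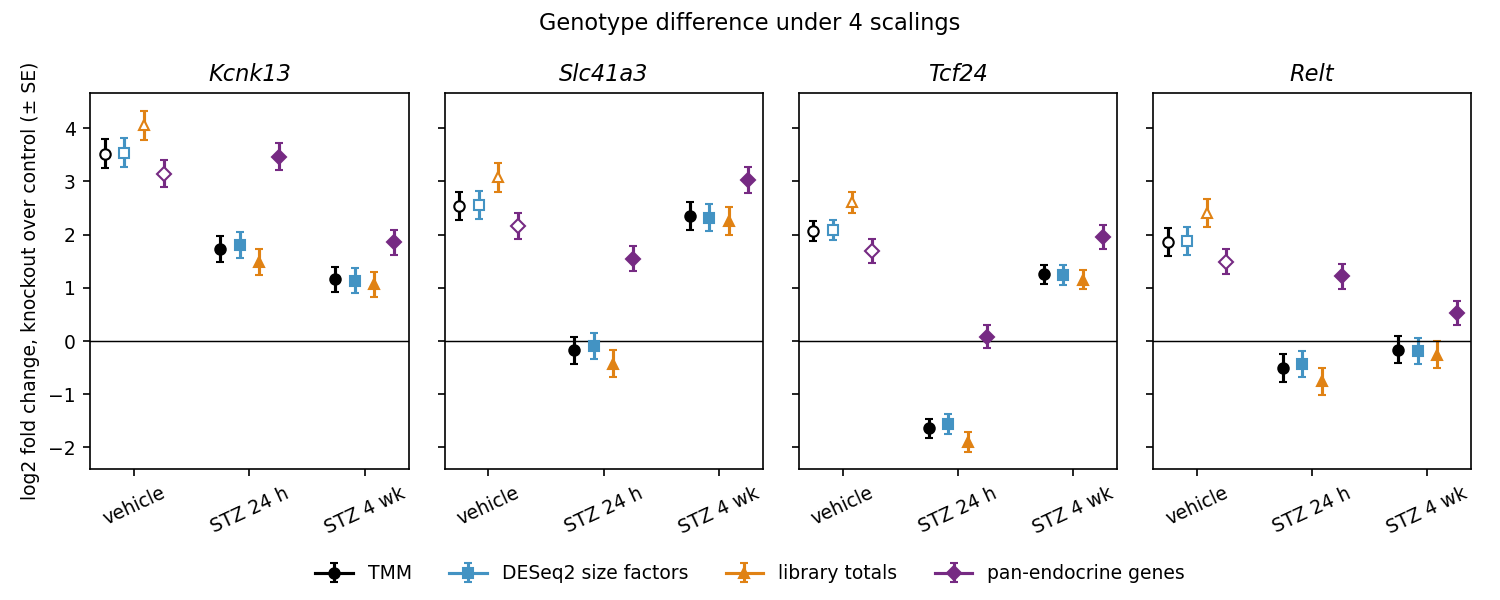
Log2 fold change of knockout over control with its SE for each gene in the 3 conditions under TMM, DESeq2 size factors, library totals and 20 pan-endocrine genes; open symbols mark the vehicle contrast that chose the genes. At 24 h the pan-endocrine values stand above the others (Tcf24 0.08 against -1.64 under TMM), and at 4 weeks Kcnk13, Slc41a3 and Tcf24 are above 0 under all 4 scalings.

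Coverage along Slc41a3 differed between its transcript starts. The upstream transcript begins at exons 1 and 2, and exon 3, 400 bases long, is the first exon of the downstream transcript, right after the promoter printed above. In mean depth per base, scaled as above, exon 3 had 27.9 and 9.15 in knockout vehicle against 0.745 and 0.797 in control vehicle. At 24 h after STZ it had 4.42 and 2.14 in knockout against 2.00 and 3.08 in control. At 4 weeks it had 20.4 and 81.9 in knockout against 1.10 and 3.07 in control. The knockout libraries therefore lay above control at exon 3 under vehicle and at 4 weeks, and the groups overlapped at 24 h. Log2 ratios of the exon 3 means were 4.59 under vehicle, 0.37 at 24 h and 4.62 at 4 weeks. Over the 9 exons that both transcripts share, the median log2 ratio was 2.55, -0.15 and 2.29 in the same order, with a range of 2.12 to 2.70 at 4 weeks. Exon 2, of the upstream transcript, had 56.6 and 22.3 in knockout vehicle against 9.999 and 8.81 in control vehicle. At 4 weeks its values were 13.9 and 44.4 in knockout against 9.82 and 14.4 in control, which overlap. Exon 3 held 3.87 to 9.84% of the gene's coverage in knockout at 4 weeks, against 0.965 to 2.00% in control. These exon values were examined after they were seen, carry no test, and differ between A and B of a group by up to several-fold. The authors' split of counts between the transcripts differed as widely. In knockout vehicle, the upstream transcript took 72.1% of the counts in one library and 18.1% in the other, so no transcript level is read from it.

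**Figure D3:**
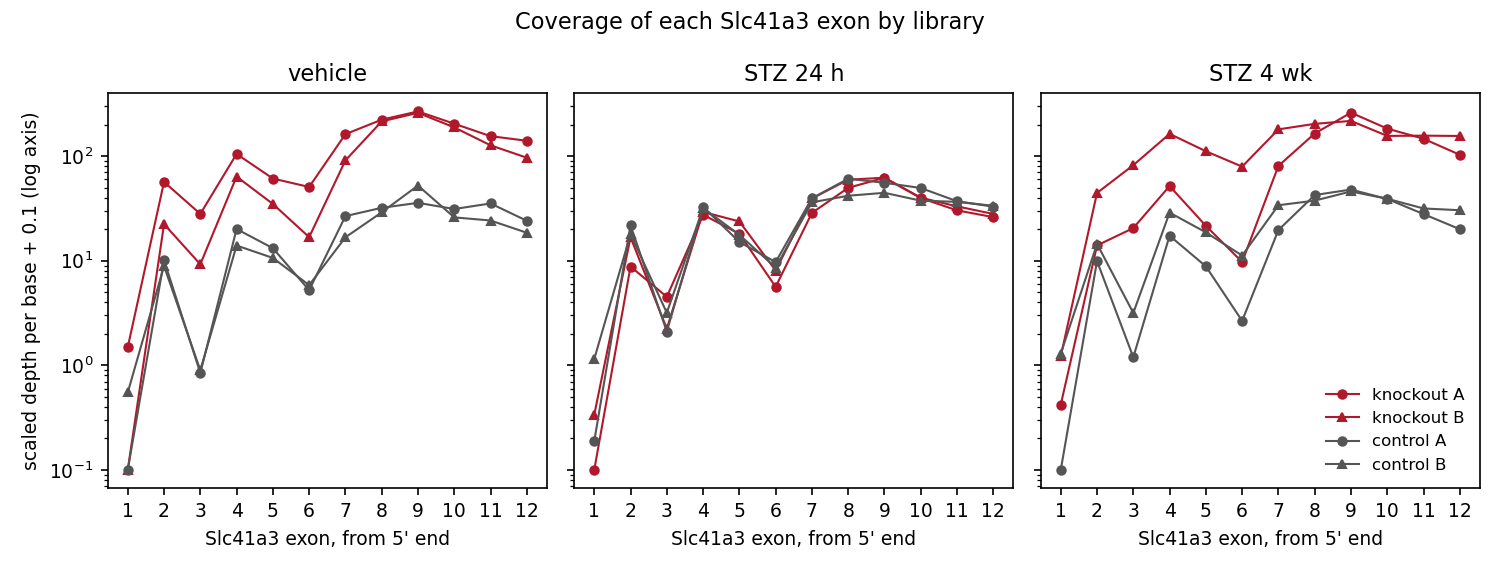
Mean depth per base of each Slc41a3 exon, scaled for library size, plus 0.1 on a log axis, for each library in 3 conditions. Knockout lies above control from exon 2 on under vehicle and at most exons at 4 weeks, with the widest gap at exon 3, and the 4 libraries lie together at 24 h.

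Coverage of the other genes was uneven. Exon 2 of Tcf24, with 3359 bases, held 99.6 to 100% of its coverage, and the fully coding 5′ exon of 387 bases held 0.0197 to 0.385%. The Tcf24 values thus describe its 3′ exon. At 24 h both Tcf24 exons were lower in knockout in every library, and under vehicle both were higher. A transcript on the opposite strand, E330040D14Rik, overlaps the 5′ exon, and counting used the strand. In Kcnk13 the last exon held 79.3 to 100% of coverage, and the first exon had none in 8 of 12 libraries. In Relt the first exon had no coverage in 4 of 12 libraries and at most 0.117% of the gene's coverage, and exons 2 to 11 were covered in every library. All 11 exons were higher in both knockout libraries under vehicle, where the first exon had no coverage in control. At 24 h, 7 of its 11 exons were lower and 1 was higher in knockout, and at 4 weeks 9 of 11 overlapped.

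Other genes of each family, taken from fixed lists, mostly did not pass the test under vehicle, and the same holds for all genes. Of all genes, 1.96% were called higher and 7.68% lower under vehicle. These shares were 23.7% and 19.4% at 24 h, and 19.9% and 7.89% at 4 weeks. Among 9 other K2P channel genes tested, edgeR called 0 higher in knockout vehicle, with 1 at an unadjusted p under 0.05 and Kcnk10 by the DESeq2 Wald test, and Kcnk6 was called lower (log2 -1.33). At 24 h, Kcnk6 (2.29) and Kcnk5 (1.34) rose in knockout. Kcnk16, the TALK-1 channel gene of beta cells, fell by 2.01 and Kcnk2 and Kcnk3 fell as well. Of 12 beta-cell markers, 11 were called lower in knockout at 24 h, with a median of -2.375. Their part in these falls was not tested. At 4 weeks Kcnk5 (3.43), Kcnk10 (2.11) and Kcnk6 (1.38) rose in knockout. Intestine-lining markers (7 of 7) and duct markers (5 of 7) were called higher in knockout at 4 weeks too, and their part in these channel genes was not tested. Kcnk5 averaged 22.8 ± 7.65 CPM in knockout at 4 weeks against 2.12 ± 0.551 CPM in control (SD, n = 2 each). The list median was -0.29 under vehicle, -0.25 at 24 h and 0.15 at 4 weeks.

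Of 19 other magnesium transport genes, 3 were called higher and 2 lower in knockout vehicle, beside 1.96% and 7.68% of all genes. Cnnm1 (0.80), Cnnm2 (0.64) and Nipal3 (0.60) rose. Slc41a1, the plasma membrane magnesium exchanger of the same family, fell to 24.3 ± 2.68 CPM in knockout vehicle against 93.2 ± 6.06 CPM in control vehicle (SD, n = 2 each), opposite to Slc41a3. Nipal4 fell by 2.94. At 24 h, 8 of 19 fell in knockout, where 19.4% of all genes did, among them Cnnm1 (-1.44) and Nipal1 (-1.55). Slc41a1 rose (0.51). At 4 weeks Slc41a2 (1.17) and the basolateral transporter gene Cnnm4 (1.80) rose beside the same intestine and duct markers, and Nipa1 and Mmgt2 fell. Medians were 0.16, -0.47 and -0.25 in the 3 conditions.

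Of 28 other genes of the RELT family and the TNF receptors, 2 were called higher and 3 lower in knockout vehicle. The shares of all genes were 1.96% and 7.68%. Tnfrsf11a (0.89), the receptor RANK, and Tnfrsf10b (0.82), the TRAIL receptor, rose. Fas (-0.98) and Tnfrsf19 (-1.08) fell, and Tnfrsf13c, a B-cell receptor for BAFF, had 0 counts in knockout vehicle, which is at least 76.0-fold lower against a floor of 3 counts over the group. At 24 h, 19 of 28 rose in knockout and 1, Tnfrsf9 (-1.54), fell, beside 23.7% and 19.4% of all genes. Tnfrsf1b (2.78), which encodes TNF receptor 2, Cd40 (3.49) and Fas (1.97) were among those that rose. At 4 weeks 12 rose and Tnfrsf9 fell (-1.10), beside 19.9% and 7.89% of all genes. Tnfrsf1b averaged 46.9 ± 2.96 CPM in knockout at 24 h against 6.85 ± 0.375 CPM in control (SD, n = 2 each). The list median was 0.00 under vehicle, 1.91 at 24 h and 0.74 at 4 weeks. Under TMM Relt did not pass at either time, and neither did 8 of the 28 at 24 h and 15 at 4 weeks. With pan-endocrine scaling, Relt averaged 25.2 CPM in knockout against 10.8 CPM in control at 24 h. Lymphocyte markers moved with the list. All 7 were called higher in knockout at both times, summing to 278 to 282 CPM at 24 h against 3.45 to 4.04 CPM in control, and their part in these counts was not tested. The RELT-like genes Rell1 and Rell2 and the kinase genes Oxsr1 and Stk39 did not pass in any condition.

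Of 11 other TCF and ID genes of the bHLH group, 0 were called higher in knockout vehicle, by edgeR, by the DESeq2 Wald test or at an unadjusted p under 0.05. EdgeR called 1.96% of all genes higher there and 23.7% at 24 h. Tcf23 had 0 counts in knockout vehicle and 98 in control vehicle, at least 47.4-fold lower against the same floor. At 24 h, 6 rose in knockout, the reverse of Tcf24, among them Id2 (1.40) and Id1 (1.3), which encode inhibitors of bHLH factors, and Tcf21 (1.60), a factor of stromal cells. At 4 weeks Tcf21 (3.38), Id1 (1.92) and Id2 (1.24) rose. Stromal markers summed to 1080 to 1090 CPM in knockout at 24 h against 424 to 431 CPM in control, and their part was not tested. The list median was -0.17, 1.40 and 1.47 in the 3 conditions. Over all genes tested, the median log2 difference was 0.00 under vehicle and at 24 h and 0.01 at 4 weeks. Under pan-endocrine scaling, edgeR called 0 of the genes of these lists and the clock list lower in knockout at 24 h or 4 weeks. Of all 17411 genes it called 117 lower at 24 h and 92 at 4 weeks, so 0 is near the background. The falls named above for those times were thus not called relative to endocrine transcripts.

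**Figure D4:**
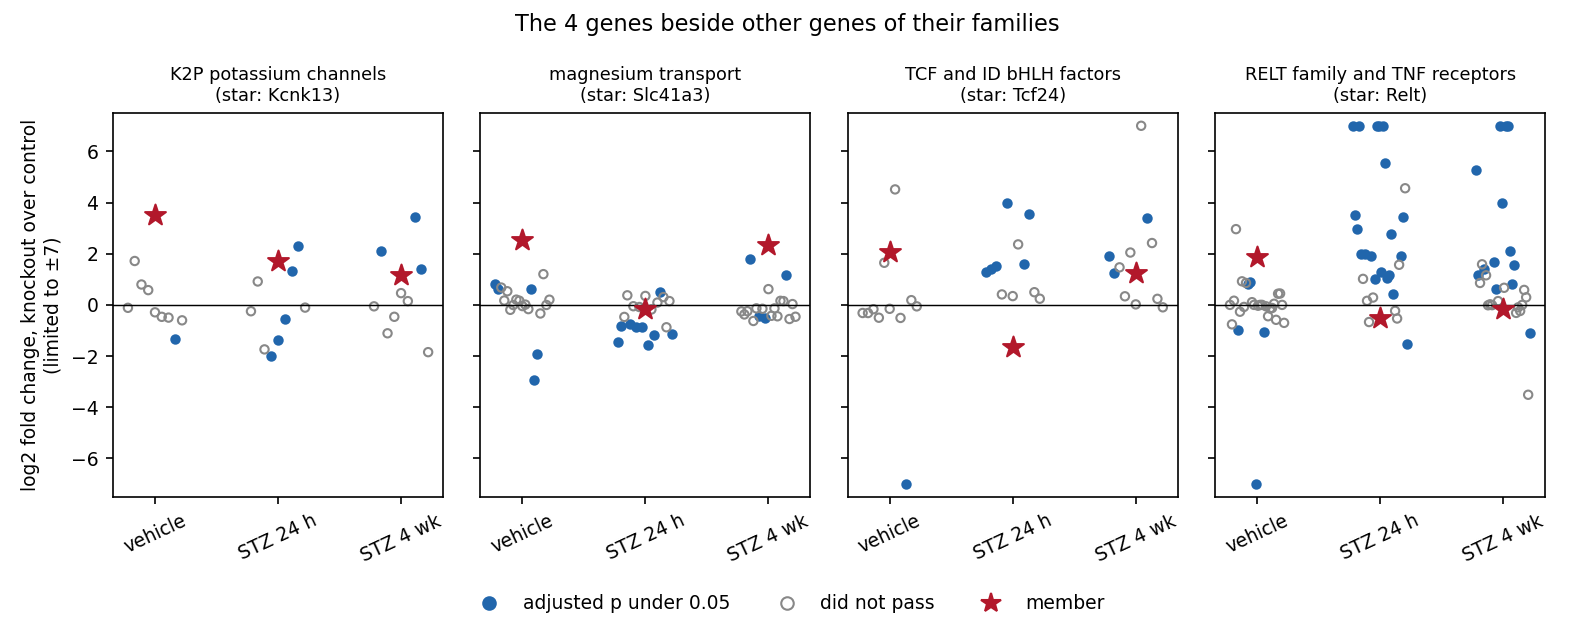
Log2 fold change of knockout over control for the tested genes of the 4 family lists in each condition, with the member as a star, filled points for adjusted p under 0.05 and values limited to ±7. Under vehicle the star stands above most points of its family, which follows from the choice of the members by that contrast. At 24 h Tcf24 (-1.64) and Relt (-0.51) lie below most of theirs.

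Genes with the most similar pattern were found by the root mean square (RMS) difference of log2(CPM + 0.1), each gene centred on its own mean, over the 12 libraries and 14175 genes with a mean of at least 1 CPM. This is a description, and the libraries share their tissue content. The genes were picked for their likeness, so a pattern shared with a member is not a separate result. The 12 libraries include the vehicle libraries that chose the members. Nearest to Kcnk13 were Ddit4l (RMS 0.52), Ppp1r3c, S100a4, the clock repressor gene Cry1 and Rnf125. S100a4 averaged 12.8, 13.8 and 14.8 CPM in knockout under vehicle, at 24 h and at 4 weeks, against 3.63, 4.66 and 3.67 CPM in control. Nearest to Slc41a3 were 1700010I14Rik (RMS 0.37), Nckap5, Fam84a, Gm2115 and again Cry1. Nckap5 averaged 16.1, 4.60 and 17 CPM in knockout, against 5.45, 4.31 and 4.17 CPM in control, with close means at 24 h. Cry1 kept a gap at all 3 times, with 49.9, 20.4 and 36.8 CPM in knockout against 8.60, 7.95 and 12.4 CPM in control.

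Nearest to Tcf24 were 4931429I11Rik (RMS 0.51), Gm2115, the defensin gene Defb1, the vitamin D receptor gene Vdr and Pabpc1l. Vdr averaged 223, 52.9 and 239 CPM in knockout, against 144, 208 and 173 CPM in control. It lay below control at 24 h and above it under vehicle and at 4 weeks. Relt had the closest neighbours of the 4, with RMS 0.28 for Dusp4, which encodes a phosphatase of MAP kinases, followed by Lingo1, Caskin1, Ovol2 and Dusp14. Dusp4 averaged 11.7, 4.72 and 6.27 CPM in knockout, against 3.23, 7.89 and 8.76 CPM in control. With a pseudocount of 1 in place of 0.1, the 5 nearest genes kept 2 for Kcnk13, 3 for Slc41a3, 3 for Tcf24 and 4 for Relt.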

How the data were processed

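The deposited gene table holds expected counts, unscaled, and the deposited transcript files hold coverage for every transcript and exon. Per the file headers, StringTie 1.3.6 made them on a RefSeq annotation of mm10, using strand. Which aligner was used is not stated. For all 84 counts of member transcripts (7 transcripts in 12 libraries), the count was coverage × length / 75 (rounded up), whereas reads had 100 bases per the labels, so counts are proportional to reads. Counts were rounded and fitted here in R 4.3.3 with edgeR 4.0.16 (filterByExpr, TMM, robust quasi-likelihood F test): 12 libraries, 6 group means, 6 residual degrees of freedom, common dispersion 0.0493. Alternatives were DESeq2 1.42.0 size factors and Wald test, library totals, pan-endocrine scaling, no filter, only the groups compared, replicate blocks and each library left out. A and B are not copies, with a chi-square over degrees of freedom of 23 or more. Scripts were tested on simulated data. The members and gene lists were chosen with earlier results of these data known. The naming rule took the 4 members, the 6 family genes of smallest adjusted p per list and comparison, 2 neighbouring genes on each side, the 5 genes of most similar pattern, Arntl and Esr1. The results of some genes it covers are not reported here.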

Additional observations from a re-analysis of the deposited data

Results flagged for a closer look

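The genotype difference itself differed between the times after STZ for Slc41a3 and Tcf24, by the edgeR test of that difference. At 4 weeks minus 24 h it was 2.52 for Slc41a3 and 2.89 for Tcf24, in log2 units under TMM. On that scale both knockout libraries were above control at 4 weeks and below it at 24 h. Of all genes, 8.79% were called positive by that test. Both knockout libraries lay above control for 30.4% of genes at 4 weeks and below it for 40.8% at 24 h.

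Between vehicle and 24 h after STZ, Slc41a3, Tcf24 and Relt had every knockout library on opposite sides of the control libraries. Above control under vehicle, they were below it at 24 h, by -0.17, -1.64 and -0.51. Of all genes, 40.8% had both knockout libraries below both control libraries at 24 h, and the rule chose the vehicle side. Under pan-endocrine scaling the 24 h differences of these genes were above 0 instead. The difference between vehicle and 24 h was not tested, because the vehicle libraries chose the genes.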

How the results depend on the processing

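Of the settings tried for the members, DESeq2 size factors, the DESeq2 Wald test, no filter on low counts and a replicate block by letter over all libraries kept the direction and the side of the threshold of every member result. Under pan-endocrine scaling, the 24 h difference was 1.55 for Slc41a3, 0.082 for Tcf24 and 1.22 for Relt, the 4-week difference of Relt 0.52, the mean of both times 1.02 for Tcf24 and 0.87 for Relt, and 4 weeks minus 24 h -1.60 for Kcnk13 and -0.69 for Relt. Within knockout, 4 weeks over 24 h was -1.45 for Kcnk13 and -0.60 for Relt, and within control -0.038 for Tcf24. With library totals, Relt passed at 24 h (-0.76), on the mean (-0.51) and within knockout over time (0.84), and Tcf24 on the mean (-0.37). In a fit of only the groups compared, Relt passed at 24 h (-0.51) and Kcnk13 did not at 4 weeks (1.11). The cause of these changes was not tested. Under vehicle, with no test, the values of Kcnk13, Slc41a3, Tcf24 and Relt were 4.06, 3.07, 2.60 and 2.40 with library totals, and 3.15, 2.16, 1.69 and 1.49 with pan-endocrine scaling.

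Leaving out each library in turn gave 1.03 to 1.3 for Kcnk13 and -0.53 to 0.13 for Relt at 4 weeks, -0.32 to -0.094 for Tcf24 and -0.52 to -0.19 for Relt on the mean (passing for Tcf24 without knockout library A, and for Relt without knockout library B, of the 4-week group), and -0.019 to 0.64 for the change of the Relt difference. Relt within knockout over time ranged over 0.24 to 0.90, passing without knockout library A of the 4-week group, and Tcf24 within control over -0.023 to 0.26. Leaving out vehicle libraries, added after the data were seen, gave 3.25 to 3.87 for Kcnk13 and 1.89 to 2.23 for Tcf24 under vehicle. Of 288 tested values without 1 library, 280 kept their direction and side of the threshold. These include, for every contrast, libraries outside it, whose removal alters only the filter, the scaling and the shared spread.

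With a replicate block by letter within each condition, Relt passed at 24 h (-0.51, edgeR adjusted p = 0.00335) and on the mean (-0.35), and Tcf24 on the mean (-0.20). No label ties a letter to a litter, batch or day. Across genes, the gap of A over B in knockout correlated with that in control by 0.12 under vehicle, 0.049 at 24 h and 0.48 at 4 weeks. Since not every pair exceeded 0.1, the letters were not taken to pair the libraries, although at 4 weeks they moved together.

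Counts over the family and clock lists moved with the scaling. With library totals, 29 were higher under vehicle, where 6221 of all 17411 genes were called higher. At 4 weeks that scaling called 9 lower, beside 2037 of all genes. The DESeq2 Wald test also called 9 lower at 4 weeks. It called 5 TCF and ID genes higher at 4 weeks where edgeR called 3. With pan-endocrine scaling, 6 were higher and 25 lower under vehicle, 79 higher and 0 lower at 24 h, and 56 higher and 0 lower at 4 weeks. Of all 17411 genes, that scaling called 110 higher and 3448 lower under vehicle. It called 14443 higher and 117 lower at 24 h, and 9014 higher and 92 lower at 4 weeks. Depth limits Kcnk13 most, with 30 to 44 counts in control vehicle libraries.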

Other observations

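The 2 nearest tested genes on each side of each member, 16 in all, are given as a description. Under vehicle edgeR called 0 higher in knockout, with 1 at an unadjusted p under 0.05 and 0 by the DESeq2 Wald test, and 2, both near Slc41a3, were called lower, where 1.96% of all genes were called higher and 7.68% lower. Aldh1l1, a folate enzyme gene 5709 bases from Slc41a3, differed by -2.62 (edgeR adjusted p = 0.000131), and Klf15, a glucocorticoid-responsive factor gene, by -1.31 (edgeR adjusted p = 0.0246). At 24 h after STZ 5 were higher and 2 lower in knockout, beside 23.7% and 19.4% of all genes. Ppp1r42, which lies 1137 bases from Tcf24, was lower as Tcf24 was, by -1.70 (edgeR adjusted p = 0.000652), and differed by 0.68 under vehicle (edgeR adjusted p = 0.138). P2ry6, a nucleotide receptor gene near Relt, was higher at 2.88 (edgeR adjusted p = 4.76e-05). At 4 weeks 2 were higher and 1 was lower, beside 19.9% and 7.89% of all genes.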
